A study of Mus musculus with 6 samples.

Results

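The ubiquitin-editing brakes on NF-κB signalling were followed in primary microglial cells (PM) as 10 genes taken by symbol from the count tables. They are A20 (Tnfaip3), its binding partners Tnip1, Tnip2, Tnip3, Tax1bp1 and Itch, the deubiquitinases Cyld and Otulin, and the ubiquitin ligases Birc3 and Peli1. All 10 matched by their current symbol among 24411 features, and all 10 had enough counts to be tested, as did 10133 genes overall. The data are RNA-seq counts from 6 PM libraries. Both groups received the H3K27 demethylase inhibitor GSK-J4 (10 μM): 3 libraries with GSK-J4 alone, and 3 with LPS (10 ng/ml) in addition, for 4-h. LPS is the bacterial ligand of TLR4. PM were microglia shaken off mixed glial cultures from pooled whole brains of ICR mice at postnatal day 3. Untreated and LPS-only PM were not analysed here, so each fold change below is LPS + GSK-J4 against GSK-J4 and says nothing of what GSK-J4 itself did. The study describes the 3 libraries of a group as independent samples, while the labels name no separate cultures or pools of brains, and the p values measure the spread between these libraries.

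TLR4 signals through chains of ubiquitin, built on TRAF6 and on receptor complexes, that hold together the kinases that release NF-κB. A20 edits these chains, and its gene is itself a classical target of NF-κB, so that the brake is applied by the signal it restrains. Cyld removes linear and other non-degradative chains, and Otulin only linear ones. The Tnip proteins (ABIN-1, ABIN-2 and ABIN-3) bind A20, and Tax1bp1 and the ligase Itch are adaptors of the A20 complex. What these proteins did in the cells was not measured. Birc3 (cIAP2) and Peli1 (Pellino-1) are ligases that add chains, and in microglia Peli1 is also known as a promoter of TLR signalling.

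The libraries held 2597505 to 3472716 fragments assigned to genes, and the ribosomal RNA precursor Rn45s took 22.2 to 32.4% of them without LPS and 45.8 to 48.1% with it. Low genes were therefore measured with fewer counts in LPS + GSK-J4, where 3 counts equalled 1.145 to 1.24 CPM (counts per unit of library size, scaled by TMM) against 0.673 to 1.1 CPM in GSK-J4, by counting error only. Replicate 3 of both groups stood apart from the other 4 libraries on the second principal component (-15.8 and -29.6 against 2.97 to 21.4). It was the lowest library for 8 of the 10 genes in GSK-J4 and for 7 of them in LPS + GSK-J4. All 13 microglial markers examined were detected, Cx3cr1 at 359 to 367 CPM without LPS and 247 to 270 CPM with it. Tmem119 was low, at 1.53 to 7.31 CPM over the 6 libraries. The summed level of the microglial list went from 4060 to 4250 CPM in GSK-J4 to 3180 to 3370 CPM in LPS + GSK-J4, and 6 of its 13 genes fell at an adjusted p of at most 0.05. At that threshold, used for all marker lists here, 13.7% of all genes tested rose and 9.91% fell. The summed level of 8 astrocyte markers was 57.5 to 60.5 CPM and 139 to 169 CPM, with 4 of the 7 tested higher, and that of 9 oligodendrocyte lineage markers 190 to 221 CPM and 366 to 423 CPM, with 5 of 7 higher. That of 5 neuronal markers was 14.8 to 19.1 and 32.4 to 40.6 CPM, with both tested genes higher. Of 3 endothelial markers (4.04 to 6.97 and 7.25 to 7.85 CPM) only 1 could be tested and it did not pass, and Cldn5 had no counts. Of 6 fibroblast markers (80.1 to 281 and 138 to 427 CPM) none passed, and of 4 border macrophage markers (55.7 to 72.5 and 34.7 to 55.3 CPM) 1 fell. The part of these differences in the results was not tested, and in such bulk samples fewer cells of a type and less RNA per cell cannot be told apart.

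Because A20 and several of its partners are regarded as NF-κB targets, the promoter sequences of the genes are shown first. RefSeq windows on the mm10 assembly (250 bases before to 50 after a transcription start) were given for 9 of the 10 genes, all but Itch, in 11 windows. The 10-base κB consensus, searched on both strands, was found in 5 of these 11 windows, those of Tnfaip3, Tnip1, Tnip3 and Cyld and the second start of Tax1bp1, against 8.46% of all 32851 windows. The AP-1 motif TGANTCA was found in 1 of them, that of Tnfaip3, against 7.81% of all windows. The stretches below are upstream of the first RefSeq start and outside annotated exons on their strand, are written 5′ to 3′ on the gene's strand, and carry the matches in capitals. They are shown because they set the gene with the largest response, Tnfaip3, and another strong responder, Tnip3, beside Tnip1 and Cyld, which hold a match and did not pass the test.
Tnfaip3: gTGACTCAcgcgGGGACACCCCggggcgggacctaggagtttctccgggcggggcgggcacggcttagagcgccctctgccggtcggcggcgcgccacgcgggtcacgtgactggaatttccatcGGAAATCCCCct
Tnip3: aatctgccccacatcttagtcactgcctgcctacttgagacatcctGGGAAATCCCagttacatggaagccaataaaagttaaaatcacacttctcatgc
Tnip1: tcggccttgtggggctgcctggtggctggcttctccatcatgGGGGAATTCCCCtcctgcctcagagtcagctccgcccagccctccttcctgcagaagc
Cyld: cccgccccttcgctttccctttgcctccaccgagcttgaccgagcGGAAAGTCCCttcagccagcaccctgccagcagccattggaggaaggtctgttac

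The Tnfaip3 stretch (chr10:19015411-19015547, minus strand) ends at the base before the start and holds the AP-1 match from -136 to -130 and κB matches from -125 to -116 and from -12 to -3. The Tnip3 stretch (chr6:65590298-65590397, plus strand) holds 1 κB match from -54 to -45. The stretches of Tnfaip3 and Tnip3 lie inside the annotated spans of these genes, given below, which begin upstream of the RefSeq starts used. In the Tnip1 stretch (chr11:54962941-54963040, minus strand), 3 overlapping registers of the consensus lie between -58 and -47. The Cyld stretch (chr8:88696828-88696927, plus strand) lies further upstream, with a match from -155 to -146 that reads on the opposite strand. The match of Tax1bp1 lies after its second start, at 35 to 44. The windows of Peli1, Birc3, Otulin and Tnip2 held neither motif. A match describes these letters only and is not evidence that a factor bound there.

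**Figure D1:**
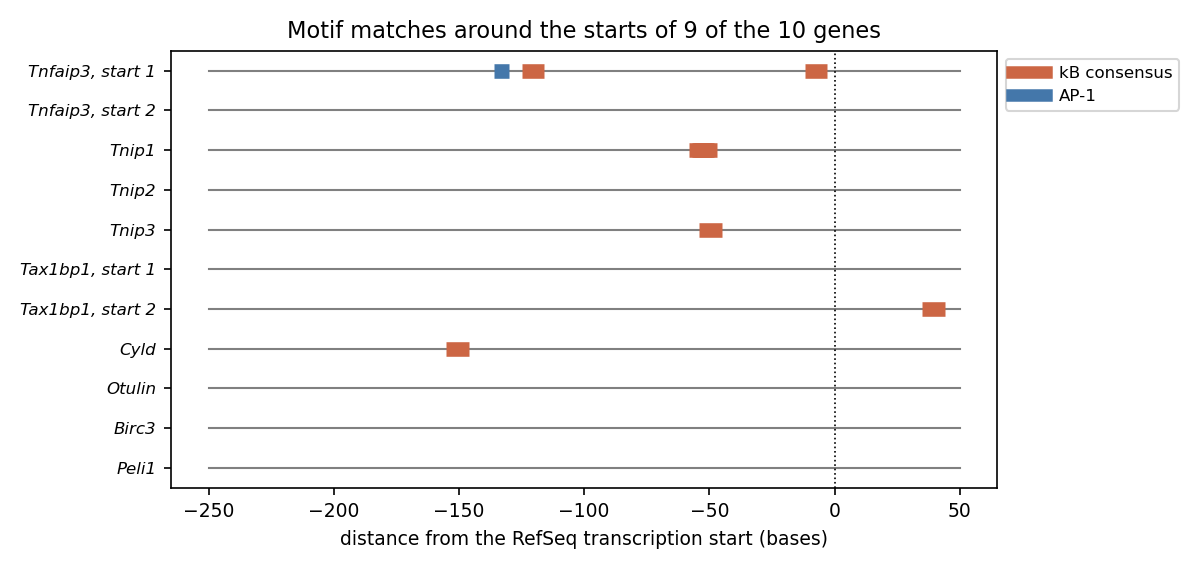
Positions of motif matches in 11 RefSeq promoter windows of 9 genes, plotted as the distance in bases from the transcription start (dotted line). Orange blocks are matches to the κB consensus and the blue block is the AP-1 match. Tnfaip3 has 2 κB matches and the AP-1 match at its first start, Tnip1, Tnip3 and Cyld have κB matches upstream, and Peli1 and Birc3 have none.

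The question put to the RNA-seq data was which of these genes responded to LPS while GSK-J4 was present. Tnfaip3, Tnip3 and Peli1 rose at the thresholds of the study (log2 fold change of 1.5 or more with an adjusted p no higher than 0.01, by edgeR's quasi-likelihood test), which makes 3 of 10 genes against 2.95% of all genes tested. No member was called lower, where the share of all genes was 0.809%. At an adjusted p of at most 0.05 without a limit on the fold change, Birc3 rose as well, which makes 4 of 10 against 13.7% of all genes, and no gene fell (9.91% of all genes). Over the 10 genes the log2 fold change had a median of 0.38 and ranged from -0.31 to 3.61, beside a median of -0.00 (-0.00064) over all genes tested. For 6 of the 10 genes all libraries with LPS lay above all without it (19.8% of all genes), and for none did they all lie below (18.4%). These counts describe the genes and are no test of the list.

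Tnfaip3 (mm10 chromosome 10, 19000910 to 19015657, minus strand, 9 merged exons) had the largest response of the 10 genes. With GSK-J4 alone its level was 214, 182 and 144.5 CPM, and with LPS added it was 2253, 2183 and 2211 CPM, here and below in the order of the replicate numbers. The groups were far apart, and the spread was wider without LPS (180.3 ± 34.9 CPM, SD, n = 3) than with it (2216 ± 35.1 CPM) relative to the mean. The increase was 12.2-fold, a log2 fold change of 3.61 (standard error 0.14, 95% interval 3.32 to 3.91, adjusted p = 1.6e-11). It was the 35th largest increase among the 10133 genes tested. In counts as deposited, 394 to 908 fragments per library became 5353 to 5773. Of all counts outside the ribosomal features Rn45s, Mir6236 and Lars2, Tnfaip3 took 0.0263 to 0.0398% without LPS and 0.389 to 0.409% with it.

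Per kilobase of exon, the scale on which genes can be compared, Tnfaip3 rose from 25 ± 4.83 to 307 ± 4.88 CPM per kb (SD, n = 3). This moved it from rank 949 to rank 60 among 9785 genes with a known length. It made up 33.4% ± 3.28 (SD, n = 3) of the summed level per kilobase of the 10 genes in GSK-J4 and 79.1% ± 1.36 once LPS was added. The transcript pool of this group of regulators was therefore mostly A20 mRNA once LPS was present. By a rule of the smallest distance in log2 CPM, centred over the 6 libraries, the genes most like Tnfaip3 were Nlrp3 (distance 0.321), Il1a (0.323), Ccl3 (0.429), Irf1 (0.436) and Heatr9 (0.478). Nlrp3 (an inflammasome sensor) rose from 29.9 to 375 CPM (log2 fold change 3.64) and Irf1 (an interferon regulatory factor) from 46.2 to 451 CPM (3.27). Since the rule picked genes by their closeness to Tnfaip3 in these same libraries, such rises follow from the choice and are no separate result. Heatr9 had no counts in GSK-J4, so its distance rests on the small count added before the logarithm.

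The 3 Tnip genes encode related A20-binding proteins and differed in their response. Tnip3 (chromosome 6, 65525313 to 65634040, plus strand) was at 7.79, 6.06 and 4.4 CPM with GSK-J4 alone and at 30.8, 27.9 and 22.3 CPM once LPS was added. The groups did not overlap, and replicate 3 was the lowest library of each. The increase was 4.31-fold, a log2 fold change of 2.11 (standard error 0.24, 95% interval 1.60 to 2.62, adjusted p = 8.92e-06), from 12 to 33 fragments per library to 54 to 79.

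Tnip1 (chromosome 11, 54910785 to 54962917, minus strand), the best studied partner of A20, was at 12.98, 13.02 and 12.47 CPM without LPS and at 14.4, 14.1 and 20.2 CPM with it. Its groups did not overlap, but the difference did not pass the test (log2 fold change 0.34, 95% interval -0.13 to 0.80, adjusted p = 0.303). Tnip2 (chromosome 5, 34496087 to 34513991, minus strand) was at 3.07, 7.41 and 5.87 CPM and at 5.07, 4.96 and 3.30 CPM, with overlapping groups. It was read from 8 to 33 fragments per library, and its interval was the widest of the 10 (log2 fold change -0.28, 95% interval -1.1 to 0.54, adjusted p = 0.656). An increase of Tnip1 or Tnip2 as large as that of Tnip3 lay outside both intervals, whose upper ends were 1.74-fold and 1.45-fold.

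**Figure D2:**
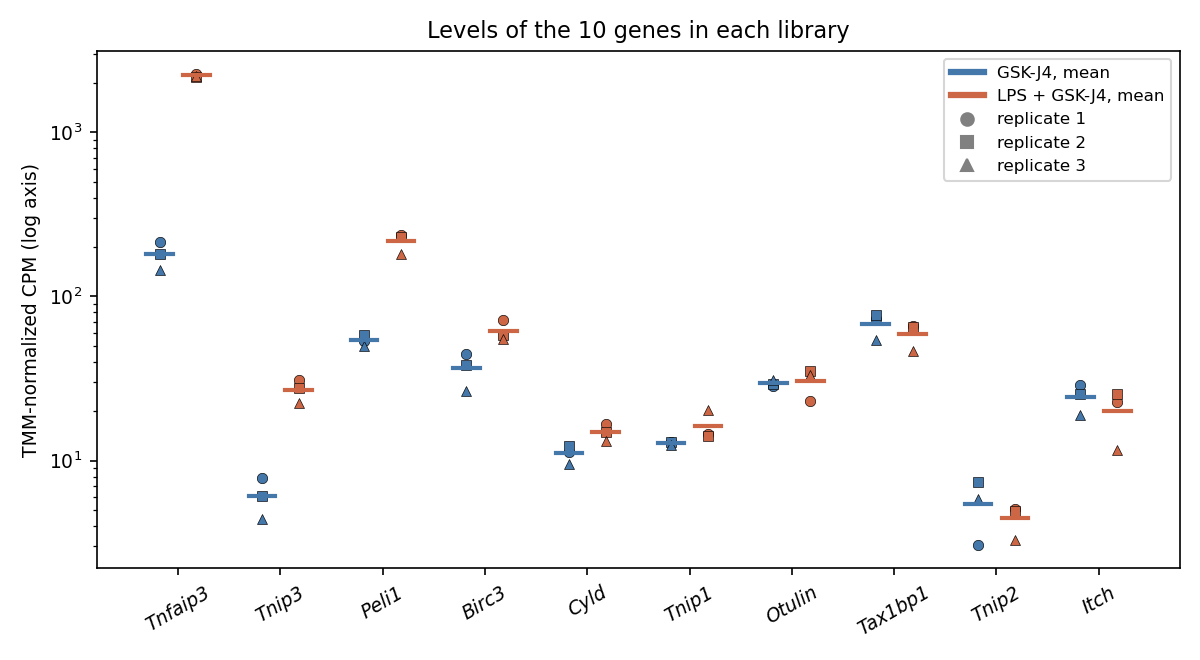
Level of each of the 10 genes in TMM-normalized CPM (log axis), with 1 symbol per library and a bar at the mean of 3 libraries, GSK-J4 in blue and LPS + GSK-J4 in orange. Tnfaip3, Tnip3, Peli1 and Birc3 have no overlap between the groups, Cyld and Tnip1 have none but a small shift, and the other 4 genes overlap.

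Peli1 was the other strong responder, and its window held neither motif. Peli1 (chromosome 11, 21091291 to 21150323, plus strand), a RING ligase that acts with the IRAK kinases below TLR4, was at 53.6, 58.6 and 50.2 CPM with GSK-J4 alone and at 238, 230.5 and 182.5 CPM with LPS added. The groups were apart, with replicate 3 lowest in both. The increase was 4-fold, a log2 fold change of 2.00 (standard error 0.14, 95% interval 1.71 to 2.29, adjusted p = 2.58e-08). Birc3 (chromosome 9, 7848699 to 7873186, minus strand), a ligase of the TNF receptor complex, was at 44.6, 38.4 and 26.4 CPM without LPS and at 72.2, 58.4 and 54.9 CPM with it. These groups did not overlap either, but the gap was smaller than the range within GSK-J4. Birc3 rose 1.67-fold, a log2 fold change of 0.74 (standard error 0.18, 95% interval 0.35 to 1.13, adjusted p = 0.00756), below the fold threshold of the study. Its paralog Birc2 (cIAP1) was at 14.1 ± 2.5 and 12.4 ± 4.33 CPM (SD, n = 3), with an edgeR adjusted p of 0.649. Fragments shared by the paralogs would be missing from both, since the counts hold only uniquely mapped fragments.

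Neither deubiquitinase beside A20 passed the test. Cyld (chromosome 8, 88697028 to 88751945, plus strand), a tumour suppressor that trims chains on TRAF proteins, was at 11.3, 12.35 and 9.53 CPM without LPS and at 16.8, 14.9 and 13.2 CPM with it. All libraries with LPS lay above all without it, yet the log2 fold change of 0.42 (95% interval -0.05 to 0.89, adjusted p = 0.197) was within the spread the model allows. Otulin (chromosome 15, 27542635 to 27630693, minus strand), which cleaves only linear chains, was at 28.55, 29.2 and 31.2 CPM and at 23.03, 35.1 and 33.04 CPM. Its groups overlapped (log2 fold change 0.04, 95% interval -0.35 to 0.43, adjusted p = 0.908), and changes of more than 1.35-fold upward lay outside the interval.

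The adaptor and the HECT ligase of the A20 complex were slightly lower with LPS, within the spread between libraries. Tax1bp1 (chromosome 6, 52713729 to 52766780, plus strand), also an autophagy receptor, was at 72.7, 76.5 and 53.9 CPM without LPS and 66.35, 64.9 and 46.25 CPM with it (log2 fold change -0.20, 95% interval -0.56 to 0.16, adjusted p = 0.437). Itch (chromosome 2, 155133509 to 155226855, plus strand) was at 29.02, 25.4 and 19.1 CPM and at 22.6, 25.6 and 11.6 CPM (log2 fold change -0.31, 95% interval -0.84 to 0.22, adjusted p = 0.422). In both genes replicate 3 was the lowest library of each group by more than the groups differed on average.

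**Figure D3:**
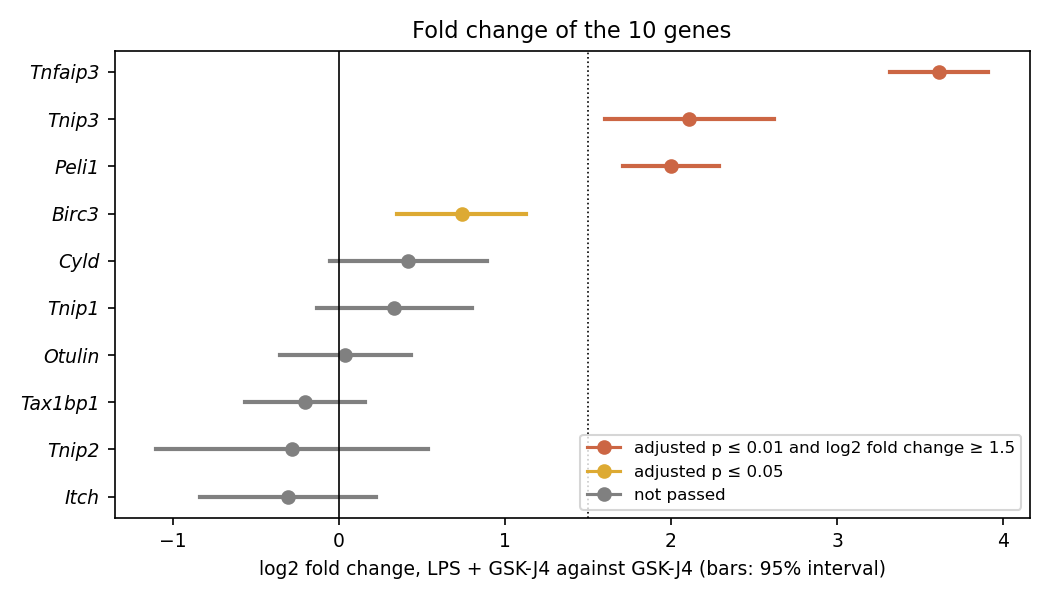
Log2 fold change of LPS + GSK-J4 against GSK-J4 for the 10 genes (points) with 95% intervals (bars) from the edgeR model. The dotted line marks 1.5, the fold threshold of the study. The intervals of Tnfaip3, Tnip3 and Peli1 lie above that line, that of Birc3 lies above 0, and those of the other 6 genes include 0.

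On the scale per kilobase of exon, the order of levels in GSK-J4 was Tnfaip3, Otulin (17.5 ± 0.807 CPM per kb, SD, n = 3), Peli1 (8.26 ± 0.642), Birc3, Tax1bp1, Tnip1, Itch, Tnip2, Cyld and Tnip3 (0.557 ± 0.155). The library values of Peli1 and Birc3, of Birc3 and Tax1bp1, and of Itch and Tnip2 overlapped, and other neighbours in the order were apart. In LPS + GSK-J4 the order was Tnfaip3, Peli1 (33.1 ± 4.6 CPM per kb), Otulin (18 ± 3.82), Birc3 (12.3 ± 1.83), Tax1bp1, Tnip1 (4.6 ± 0.972), Tnip3 (2.47 ± 0.397), Itch, Tnip2 and Cyld (1.19 ± 0.142). Here the values of Otulin and Birc3, of Tax1bp1 and Tnip1, and of the 4 genes from Tnip3 to Cyld overlapped between neighbours. The place of Tnip3 depends on the gene length used, since its merged exons span 10.9 kb and the median of its coding transcripts 1.58 kb. With the latter length, chosen after seeing the data, Tnip3 was at 17.1 CPM per kb in LPS + GSK-J4, above Tnip1 at 5.81. Tax1bp1 then took the second place in GSK-J4, and Birc3 stood above Otulin in LPS + GSK-J4. The share of Tnfaip3 in the summed level was then 77%.

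Ratios of 2 genes within a library do not depend on the scaling between libraries, and 8 were computed, on counts per kilobase. The ratio of Tnfaip3 to its partner Tnip1 was 8.02, 6.8 and 5.6 without LPS and 75.4, 74.7 and 53 with it. That of Tnfaip3 to Cyld was 25.5 to 32.6 without LPS and 231 to 287 with it. A20 mRNA thus outnumbered that of Tnip1 and of the deubiquitinase Cyld far more in each library with LPS than in any without it. The ratio of Tnip3 to Tnip1 was 0.117 to 0.196 and 0.357 to 0.687, that of Birc3 to Birc2 was 2.1 to 2.49 and 3.81 to 5.68, and that of Peli1 to Peli2, a paralog, 2.43 to 2.87 and 9.37 to 13.2. For these 5 ratios the groups did not overlap, and the 2-sided exact permutation test gave p = 0.1, the smallest that 3 libraries against 3 allow, with an adjusted p of 0.16 over the 8 ratios. The size of a ratio depends on the gene lengths used, while its log2 difference between groups does not. With the median length of coding transcripts, Tnip3 lay above Tnip1 in LPS + GSK-J4, as given above. The ratio of Otulin to Rnf31, the catalytic ligase of linear chains, was 11.4 to 22.7 and 9.35 to 12.7 (exact p = 0.2). Those of Tnip2 to Tnip1 and of Itch to Tax1bp1 also overlapped (exact p = 0.4 and 0.6).

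**Figure D4:**
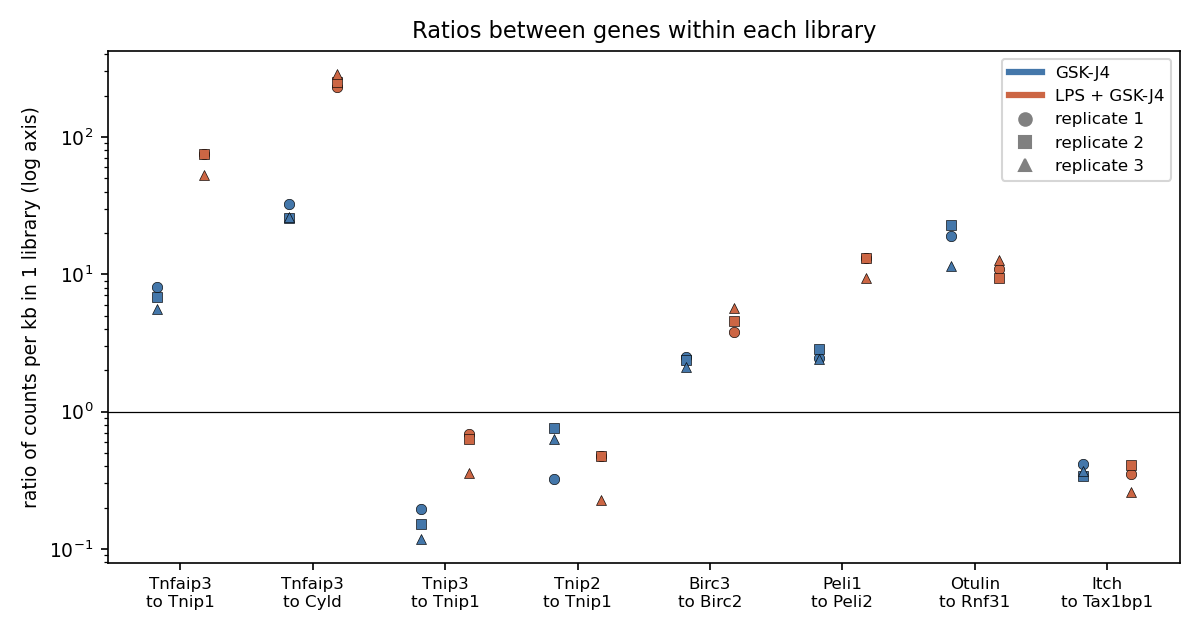
Ratio of counts per kilobase of exon between 2 genes of the same library (log axis), with 1 symbol per library, GSK-J4 in blue and LPS + GSK-J4 in orange. The groups are apart for Tnfaip3 to Tnip1, Tnfaip3 to Cyld, Tnip3 to Tnip1, Birc3 to Birc2 and Peli1 to Peli2, and overlap for the other 3 ratios.

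The remaining machinery of the pathway moved less than Tnfaip3, Tnip3 and Peli1. Over 4 further lists of ubiquitin regulators (43 genes, 41 tested) 5 genes rose and 6 fell at an adjusted p of at most 0.05, 30 did not pass, and the median log2 fold change was -0.00 (-0.00341). Among all genes tested 13.7% rose and 9.91% fell at that threshold, so the counts in these lists were near the background. Of 13 ligases and conjugating enzymes tested, the TRAF6 partner Ube2n rose from 26.3 ± 4.97 to 41.1 ± 6.91 CPM (SD, n = 3, log2 fold change 0.63, edgeR adjusted p = 0.0221) and Traf6 fell from 67.7 ± 7.05 to 49.9 ± 6.47 CPM (-0.44, adjusted p = 0.0405). Both calls were fragile: with DESeq2 the adjusted p was 0.0719 for Ube2n and 0.0541 for Traf6. Ube2n also missed the threshold without GSK-J4 replicate 1 or 3 or LPS + GSK-J4 replicate 1 or 2 (adjusted p up to 0.0874), and Traf6 without any 1 library other than GSK-J4 replicate 3 (up to 0.181). The other 11, among them the linear chain ligase subunits Rnf31, Rbck1 and Sharpin, did not pass. Peli3 was too low to be tested, at 2.80 ± 1.07 and 1.73 ± 0.878 CPM (SD, n = 3).

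Of 11 ubiquitin-binding adaptors and kinases, Ripk2, the kinase of NOD signalling, rose from 17.97 ± 3.53 to 59.6 ± 2.4 CPM (SD, n = 3, log2 fold change 1.71, edgeR adjusted p = 2.08e-06), and was the only gene of the 4 lists called at the thresholds of the study. Sqstm1 (p62) rose by a log2 fold change of 0.91, while Tab1 and Ripk1 fell by 0.83 and 0.56 on the log2 scale (edgeR adjusted p = 7.62e-06, 0.00649 and 0.0092). Without GSK-J4 replicate 1 the adjusted p of Ripk1 was 0.0663. Among 9 other deubiquitinases and A20 helpers, Rnf11, an A20 complex member, rose by 0.59, and Otulinl, a catalytically inactive relative of Otulin listed under its older symbol Fam105a, and Zranb1 fell by 0.71 and 0.63 (edgeR adjusted p = 0.00671, 0.00673 and 0.017). The call of Zranb1 was lost without GSK-J4 replicate 2 (adjusted p = 0.0788) or LPS + GSK-J4 replicate 2 (0.0744). Among 8 NEDD4-family ligases and adaptors, the family of Itch, Nedd4 rose from 83.6 ± 27.3 to 177 ± 10.6 CPM (SD, n = 3) and Wwp1 fell from 83.8 ± 10.2 to 35.9 ± 7.82 CPM. Their log2 fold changes were 1.08 and -1.22 (edgeR adjusted p = 0.000311 and 6.06e-05). Without replicate 3 of both groups, Nedd4 did not pass (adjusted p = 0.132).

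As a scale for these changes, 17 of 18 NF-κB target genes rose at an adjusted p of at most 0.05, 13 of them at the thresholds of the study, against 13.7% and 2.95% of all genes. Their median log2 fold change was 2.90. Tnf, Ccl4 and Cxcl1 had the largest, at 6.95, 5.82 and 5.78. Tnfaip3 lay above this median, Tnip3 and Peli1 below it, and Birc3 (0.74) was close to the lower end of the list, where Bcl3 had 0.57 (adjusted p = 0.134, named after its value was seen). The target list was chosen with earlier results of these data known, so its rise is a scale only and no separate result.

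**Figure D5:**
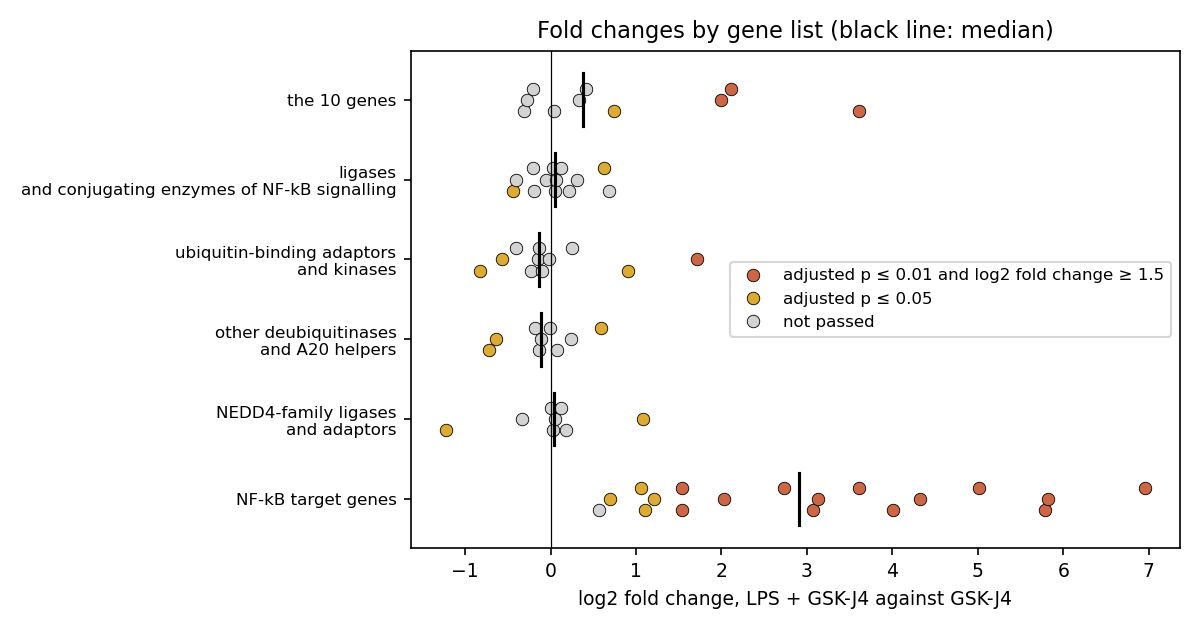
Log2 fold change of LPS + GSK-J4 against GSK-J4 for the genes tested in each list, 1 point per gene, with the median as a black line. The 4 lists of ubiquitin regulators centre near 0, the 10 genes have a median of 0.38 with Tnfaip3, Tnip3 and Peli1 far to the right, and the NF-κB target genes have a median of 2.90.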

How the data were processed

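RNA-seq of 6 PM libraries was used, 3 per group, grouped by the titles in the labels. The authors trimmed reads with Trimmomatic (0.33), aligned them to mm10 with STAR (2.5.1) and deposited raw fragment counts per gene without normalization, in 3 strand columns. The annotation used for counting is not given in the sources used here. The reverse-strand counts were used, since the kit is directional, and the first 4 lines, tallies of unassigned fragments, were left out.

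The test was edgeR 4.0.16 under R 4.3.3 (TMM scaling, robust quasi-likelihood fit without covariates, low genes removed by filterByExpr at a count of 10 and a total of 15), with Benjamini-Hochberg adjustment over 10133 genes. Fold changes carry a 95% interval from the moderated degrees of freedom, and 0.5 was added to counts in ratios. The model was tested on simulated data. Positions and exon lengths are from GENCODE vM21 (mm10), and promoter windows from RefSeq (GRCm38.p6). Named genes are the 10 members, in each further list up to 3 passing genes per direction with the largest change, and the 5 genes nearest to Tnfaip3. Outside this rule, Birc2, Peli2 and Rnf31 are named as partners in ratios, Rnf31, Rbck1 and Sharpin as subunits of 1 ligase, and Peli3 and Bcl3 after their values were seen. The members and lists were chosen with earlier results of these data known. Alternatives were unstranded counts, DESeq2 1.42.0 size factors and Wald test, other filters, no ribosomal features, a replicate block, each library left out, and, added after seeing the data, replicate 3 left out and another gene length.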

Additional observations from a re-analysis of the deposited data

Results flagged for a closer look

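The antisense column, which no comparison above uses, was higher in CPM in every LPS + GSK-J4 library than in every GSK-J4 library at Tnfaip3 and Peli1, and at none of the other 8 genes. The share of all genes whose antisense counts separate in this way was not computed. The separation is therefore not a result particular to these genes. At Tnfaip3 the antisense counts were 24, 39 and 35 in LPS + GSK-J4 replicates 1, 2 and 3, 98 in all, against 5, 10 and 3 in GSK-J4, 18 in all. As a share of the counts of both strands they were 0.414 to 0.677% with LPS and 0.548 to 1.22% without it. Over all genes of a library the antisense share was 0.966 to 1.08% with LPS and 1.01 to 1.38% without it. At Peli1 the antisense counts were 8 in all with LPS and 6 without it, 0.327 to 0.674% and 0.76 to 1.44% of both strands. The counts at Peli1 are too few for a statement on their size, and the cause of either difference was not tested.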

How the results depend on the processing

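Tnfaip3, Tnip3 and Peli1 were called, and Birc3 passed at an adjusted p of at most 0.05 (0.036 at the highest), in each of the 14 alternative fits. Their log2 fold changes ranged over 3.48 to 3.75, 1.96 to 2.32, 1.93 to 2.11 and 0.58 to 0.91. Of the 6 genes that did not pass, Tnip1 (0.14 to 0.43), Cyld (0.33 to 0.50), Tax1bp1 (-0.33 to -0.06) and Itch (-0.53 to -0.05) had the same sign in all 14 fits, and none passed in any. Otulin was at -0.01 (-0.0087) with DESeq2 and -0.01 (-0.0137) without a filter on low counts, and between -0.0789 and 0.203 with 1 library left out. Tnip2, at 8 to 33 counts per library, was between -0.594 and 0.0565 with 1 library left out, positive only without GSK-J4 replicate 2. The log2 difference in the ratio of Itch to Tax1bp1 was between -0.295 and 0.0267 with 1 library left out, positive only without LPS + GSK-J4 replicate 3. The causes were not tested. In the 4 further ubiquitin lists 11 genes passed, and between 8 (without GSK-J4 replicate 1 or LPS + GSK-J4 replicate 2) and 12 with 1 library left out, 9 with DESeq2, 12 without a filter and 13 (5 higher, 8 lower) with the replicate block or without replicate 3 of both groups. Of the 11 genes, Ube2n, Traf6, Ripk1, Zranb1 and Nedd4 lost their call under at least 1 alternative, and none changed sign. Of the NF-κB targets 17 passed, 15 with at least 10 counts in every library, 16 with the block and 18 without LPS + GSK-J4 replicate 2. Over all genes, 381 were called, 232 with at least 10 counts required in every library (fewer genes tested), 492 without a filter and 342 with DESeq2. The labels do not say what libraries of equal replicate number share. Deviations of same-numbered libraries correlated at -0.0102, 0.117 and 0.295 for replicates 1, 2 and 3, and not every library correlated best with its own number. The value for replicate 3 was the highest of all pairs across the groups, and both replicates 3 also stood apart on the second principal component. The cause was not tested. A fit with a block for the replicate number called 396 genes, 3 of the 10 among them, and 4 of the 10 passed. Depth limits Tnip2 most.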
